A study of Mus musculus with 15 samples.

Results

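The step from T30 to T60 of a tissue dissociation time course in mouse skeletal muscle stem cells was examined as 4 T60 libraries, 60A to 60D of the deposited table, against 3 T30 libraries, 30A to 30C. The libraries were chosen by their time label and make up 7 of the 22 bulk libraries of the series, and all 8059 genes of the table were tested. T60 and T30 cells are both labelled as coming from dissociated muscle and as fixed. Per the labels' protocols, tissue was digested with collagenase and dispase, which loosen the matrix around cells, and fixed with PFA. The labels give no unit for 60 and 30, which were taken as minutes. The sources used here do not give the strain, the age, the sorting of the bulk cells or the number of animals behind a library. No label says that libraries of a time point came from separate animals, so p-values measure the spread between these libraries, which may be technical. In bulk libraries, fewer cells of a type and less RNA per cell cannot be told apart. Counts over the listed genes summed to between 13006535 and 17938116 per library at T60 and between 3876418 and 9873856 at T30.

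Muscle stem cells, or satellite cells, lie between the muscle fibre and its basal lamina and rest out of the cell cycle until the muscle is damaged. Signals from damage act through MAP kinases, calcium, NF-kB and cytokine receptors, and first reach immediate early genes, whose transcription needs no new protein. Their products, AP-1, EGR and NR4A factors among them, then act on delayed early genes, which include further transcription factors, feedback inhibitors and growth regulators. Many immediate early mRNAs carry AU-rich elements and are short-lived.

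Delayed early regulators were the list with the highest median change at T60 over T30, and among all genes Trib1 (log2 change 3.60 ± 0.24, estimate ± standard error), Fosl1 (3.31 ± 0.55), Stat3 (2.74 ± 0.20), Bcl3 (2.71 ± 0.27) and Errfi1 (2.66 ± 0.23) were among the strongest rises. Of 17 first-wave transcription factors 10 rose, but Fos (-0.29 ± 0.35) and Egr1 (-0.10 ± 0.24) were not called. Jun (-0.86 ± 0.34) was called lower, a call lost under 2 of 3 background treatments and without each of 5 single libraries in turn. A small set of genes fell under every treatment of the background described below, including Skp2 (-1.72 ± 0.28), Sox8 (-1.57 ± 0.31), Klf15 (-1.42 ± 0.34) and Txnip (-1.35 ± 0.35).

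Of the 8059 genes, 2137 were called higher at T60 (26.5%) and 1974 lower (24.5%) at an adjusted p under 0.05 in edgeR's quasi-likelihood test. Of these, 504 rises and 619 falls were at least 2-fold. T60 libraries did not overlap T30 libraries for 2291 genes that were higher (28.4%) and 2043 that were lower (25.4%). The calls depend on scaling. With column totals in place of TMM factors 1034 genes were higher and 3662 lower. The median log2 change of all genes was then -0.33 instead of 0.01. Changes are therefore given relative to the TMM scale, and list counts on column totals are given below for some lists only. Such counts are to be read against these 1034 higher and 3662 lower of all 8059 genes. Among the lists without them below, autophagy and lysosome genes had 7 higher and 15 lower on column totals, and tRNA synthetases 1 and 9. Proteasome subunits had 4 higher and 5 lower, cell cycle entry genes 1 and 7, myogenic commitment genes 4 and 4, and clock genes 6 and 5.

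The T30 libraries had more counts in genes that muscle stem cells are not known to use. Across 10 long genes of nerve, sensory cells, cilia and gut, among them Muc16, Pclo, Dnah17 and Pcdh15, the summed level averaged 0.361 ± 0.0218 CPM per kb of exon at T60 and 4.16 ± 2.44 CPM per kb at T30 (SD, 4 and 3 libraries). Each T60 library lay between 0.331 and 0.378, against 6.28 in 30A, 4.70 in 30B and 1.49 CPM per kb in 30C. Libraries 30A and 30B also had the lowest totals of these 7, and the density was 3.43% to 3.89% of the median gene's level at T60, against 66.7% and 50.5% in 30A and 30B and 16.0% in 30C. The ratio of T60 to T30 was 0.0869. Single genes of the 10 averaged from 0.000637 (Muc16) to 1.93 CPM per kb (Mgam) at T60. At T30 they averaged from 2.30 (Grin2a) to 18.1 CPM per kb (Mroh2a), so the summed density does not describe each gene. These 10 genes are those of 86 such genes that are in the table, and genes such as Muc16 are in it only through libraries where they are high, so the ratio is a description with no test. Fold changes followed the level of a gene. In the lowest of 10 equal bins of genes by level per kilobase the median log2 change was -0.85 and 68.8% were called lower at T60, while in the highest bin it was 0.51 and 55.9% were called higher.

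**Figure D1:**
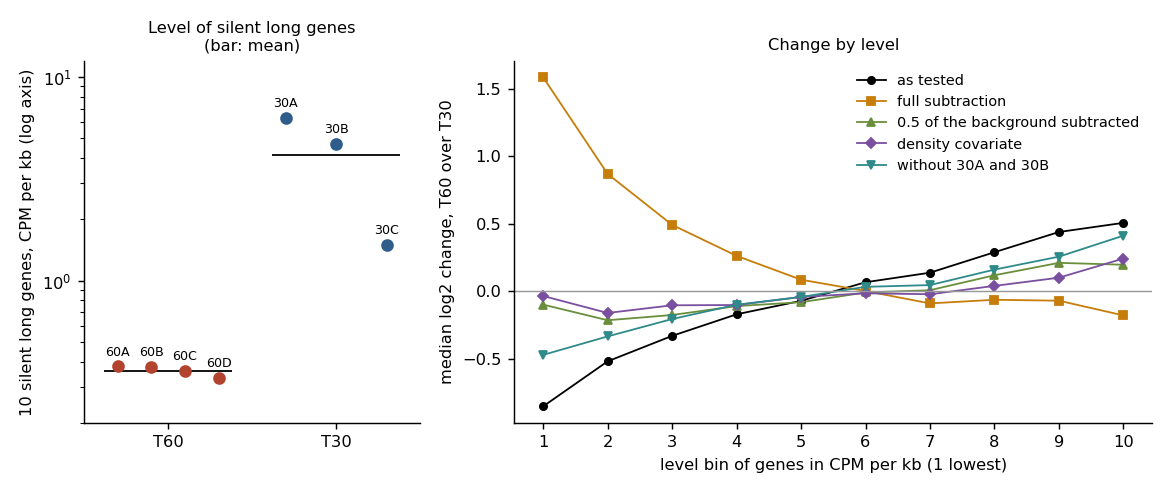
Left, level of 10 silent long genes in CPM per kb of exon (log axis) in each T60 and T30 library. Right, median log2 change (T60 over T30) in 10 bins of genes by level, as tested and under each treatment of the background. The 4 T60 points lie between 0.331 and 0.378 and the 3 T30 points between 1.49 and 6.28, and the tested values run from -0.85 to 0.51 while full subtraction gives 1.59 in the lowest bin and -0.18 in the highest.

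Each result below therefore carries 3 further fits. The first subtracts this density in full from every count in proportion to exon length, the second takes the log2 density of a library as a covariate, and the third leaves out 30A and 30B, so that the lone T30 library is assumed to vary like the other groups. After full subtraction 1363 genes were higher (16.9%) and 997 lower (12.4%) of 8050 that could be tested, and the median of all genes was 0.17. Under all 3 treatments together 530 rises (6.58%) and 70 falls (0.869%) kept their call and direction, and these are called held from here on. Held counts of a list are to be read against these shares, and its calls against 26.5% higher and 24.5% lower. Of the held rises 356 were at least 2-fold, as were 36 of the held falls. After full subtraction 86 of the 530 held rises were left with at least 1 T30 library at 0, and 8 with all of them at 0, so their subtracted fold changes are no measure of size. Of 95 held rises named here the change differed from the tested one by over 1.5-fold for 42 after full subtraction, 22 with the covariate and 7 without 30A and 30B, and of 18 held falls for 6, 4 and 1. The part of the background in any single result was not tested beyond these fits.

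**Figure D2:**
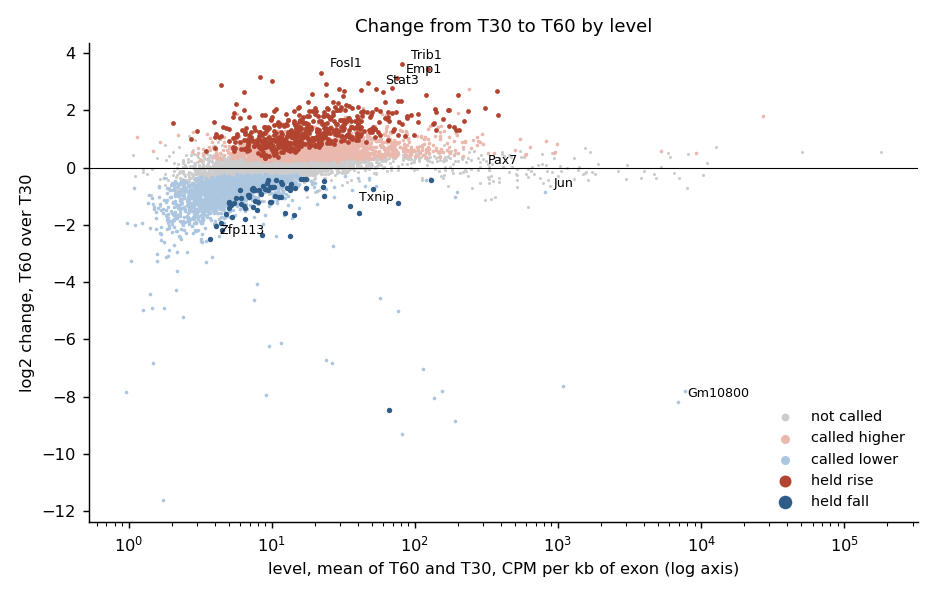
Log2 change (T60 over T30) of each of the 8049 genes matched to GENCODE vM21 against its level, the mean of both time points in CPM per kb (log axis). Grey points were not called, pale points were called in the main test, and dark points are the held rises and held falls among these genes. Pale falls gather at low levels and dark falls are few.

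The T60 libraries themselves did not lie at equal distance from T30. On the first principal component of all 22 libraries, 60C scored 14.27, 60B 22.66, 60A 22.95 and 60D 32.17, against -40.68 to -31.99 for the T30 libraries. In 466 of the 530 held rises (87.9%) 60C was the T60 library nearest to the T30 level, and 60D was the farthest in 286 (54.0%) and 60A in 172 (32.5%). In the 70 held falls 60C was nearest in 45 (64.3%) and 60D farthest in 46 (65.7%). Over all 8059 genes 60C was the lowest T60 library in 31.0%.

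Promoter stretches are shown for 8 held rises, chosen after their values were seen because a CRE (TGACGTCA) or an AP-1 motif (TGACTCA), the sites of CREB and AP-1 factors, lies within 250 bases before the start. Motifs were searched on both strands. A gene was counted if any of its starts had at least 1 match, whether or not another motif overlapped it. Stretches are 60 bases from RefSeq on GRCm38.p6, 5′ to 3′ along the gene, with the motif in capitals, and TGAGTCA is the AP-1 motif read on the opposite strand.
Errfi1 (chr4:150854993-150855052, plus strand): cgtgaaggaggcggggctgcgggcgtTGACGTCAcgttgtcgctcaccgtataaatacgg
Maff (chr15:79347460-79347519, plus strand): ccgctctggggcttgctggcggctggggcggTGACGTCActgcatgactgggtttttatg
Ccnl1 (chr3:65958250-65958309, minus strand): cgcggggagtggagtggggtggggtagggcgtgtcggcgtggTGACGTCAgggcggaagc
Akirin1 (chr4:123750300-123750359, minus strand): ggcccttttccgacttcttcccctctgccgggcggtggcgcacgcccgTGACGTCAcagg
Emp1 (chr6:135362760-135362819, plus strand): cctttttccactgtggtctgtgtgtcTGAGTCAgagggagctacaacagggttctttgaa
Csrnp1 (chr9:119983092-119983151, minus strand): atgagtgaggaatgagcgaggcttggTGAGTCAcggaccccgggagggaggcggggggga
Bag3 (chr7:128523523-128523582, plus strand): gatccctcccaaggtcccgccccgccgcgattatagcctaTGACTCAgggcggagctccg
Plaur (chr7:24462388-24462447, plus strand): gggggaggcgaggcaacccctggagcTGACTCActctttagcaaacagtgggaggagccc
A promoter was matched for 6140 of the 8059 genes and 416 of the 530 held rises. A CRE was contained in 31 of these 416 (7.45%), against 2 of 49 held falls (4.08%), 213 of the 6140 tested genes (3.47%) and 1.77% of all 27025 RefSeq promoters. For AP-1 the shares were 4.81% of held rises, 4.08% of held falls, 3.83% of tested genes and 5.16% of all promoters. Another 8 motifs were searched in the same way. Among held rises, against all tested genes, NF-kB motifs were in 9.86% and 10.6%, CArG boxes in 0.962% and 1.64%, heat shock elements in 0.24% and 0.505%, and STAT motifs (TTCNNNGAA) in 8.17% and 6.78%. Antioxidant response elements (TGACNNNGC) were in 16.8% of held rises and 14.2% of tested genes, E-boxes (CACGTG) in 10.1% and 11%, CCAAT boxes (CCAAT) in 41.6% and 39.9%, and TATA boxes (TATAAA) in 6.01% and 7.54%. These are letters in a window and not bound sites.

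The 12 largest rises among protein coding genes of at least 20 mean CPM that did not overlap and were also called after full subtraction begin with Trib1, a pseudokinase that guides proteins to the COP1 ubiquitin ligase (chr15:59648350-59657099, GENCODE vM21 on mm10). Trib1 had 1056, 855, 704 and 1112 CPM in the T60 libraries, against 77.5, 76.8 and 75.6 CPM in the T30 libraries. All T60 libraries were about an order of magnitude above the T30 libraries, which lay within a narrow band, and the log2 change was 3.60 ± 0.24 (edgeR adjusted p = 2.9e-09). Asb5, an ankyrin repeat protein with a SOCS box, had 446, 398, 225 and 606 CPM in the T60 libraries, against 38.1, 33.4 and 43.9 CPM in the T30 libraries. Its log2 change was 3.44 ± 0.27 (edgeR adjusted p = 9.8e-09), with 60C nearest to T30 and no overlap. Emp1, a membrane protein of the PMP22 family, averaged 797 ± 139 CPM at T60 and 91.6 ± 13.4 CPM at T30, a log2 change of 3.12 ± 0.27 (edgeR adjusted p = 3.26e-08). Its promoter stretch, with an AP-1 motif on the opposite strand, is shown above. Fgl2, a fibrinogen-like protein, had 28.4, 27.7, 12.7 and 47.2 CPM in the T60 libraries, against 5.31, 5.80 and 1.73 CPM in the T30 libraries, and a change of 2.88 ± 0.41. The T30 level of Fgl2 was low, no T60 library overlapped it, and full subtraction left 24.9, 24.5, 10.7 and 42.5 CPM in the T60 libraries and every T30 library at 0, so that no fold is given there.

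Others of the 12 belong to cytoskeleton and transcription. Tubb6, a beta tubulin, averaged 292 ± 68.6 CPM at T60 and 42.7 ± 3.72 CPM at T30 and rose by 2.78 ± 0.26, and Arid5b, a DNA-binding ARID protein, averaged 516 ± 164 CPM at T60 and 76.1 ± 11.9 CPM at T30 and rose by 2.76 ± 0.35. Cebpb, the leucine zipper factor C/EBP beta, had 659, 656, 481 and 721 CPM in the T60 libraries, against 100.3, 69.6 and 111 CPM in the T30 libraries, a log2 change of 2.75 ± 0.37 (edgeR adjusted p = 7.07e-06). With the density covariate it had 1.59 (edgeR adjusted p = 0.0595) and its call was lost, while the other 11 held. Those not yet given, Fosl1, Csrnp1, Pim1, Stat3 and Bcl3, follow with their lists.

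Of 26 delayed early genes 23 rose, 16 of them held, and the other 3 were not called. The median log2 change of the list was 1.56, against 0.01 for all genes, and with column totals 20 were higher and 1 lower. Fosl1, the AP-1 subunit FRA-1 (chr19:5447547-5455946), had 81.6, 102, 35.8 and 103 CPM in the T60 libraries, against 14.2, 8.40 and 3.55 CPM in the T30 libraries, without overlap. Its log2 change was 3.31 ± 0.55 (edgeR adjusted p = 5.46e-05), and 5.65 with the covariate and 4.49 without 30A and 30B. Full subtraction left 2.99, 0 and 0.599 CPM in the T30 libraries, and the fitted change of 6.44 rests on these. Fosl2, its relative FRA-2, rose by 1.95 ± 0.21, and the small MAF factor Mafk by 1.83 ± 0.19. Runx1, a transcription factor of progenitor cells, had 982, 897, 718 and 1086 CPM in the T60 libraries, against 247, 224 and 305 CPM in the T30 libraries, again without overlap, and a log2 change of 1.83 ± 0.20 (edgeR adjusted p = 6.67e-07). Myc, a transcription factor of growth and ribosome production, had 617, 596, 386 and 599 CPM in the T60 libraries, against 159, 197 and 202 CPM in the T30 libraries. The T60 libraries lay above all T30 libraries, with 60C below the other T60 libraries, and the log2 change was 1.56 ± 0.21 (edgeR adjusted p = 7.3e-06).

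Receptors and enzymes of the same list rose as well. Tnfrsf12a, the receptor FN14 of the cytokine TWEAK (chr17:23675445-23677468), had 206, 203, 164 and 226 CPM in the T60 libraries, against 29, 29 and 36.6 CPM in the T30 libraries. The log2 change was 2.65 ± 0.18 (edgeR adjusted p = 3.15e-09). Plaur, the urokinase receptor, rose by 1.76 ± 0.42, and Hbegf, a ligand of the EGF receptor, by 1.75 ± 0.35. Odc1, the first enzyme of polyamine synthesis and a known MYC target, rose by 1.62 ± 0.25, Litaf, a regulator of endosomes named for TNF induction, by 2.29 ± 0.26, and all of the rises named for this list held.

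**Figure D3:**
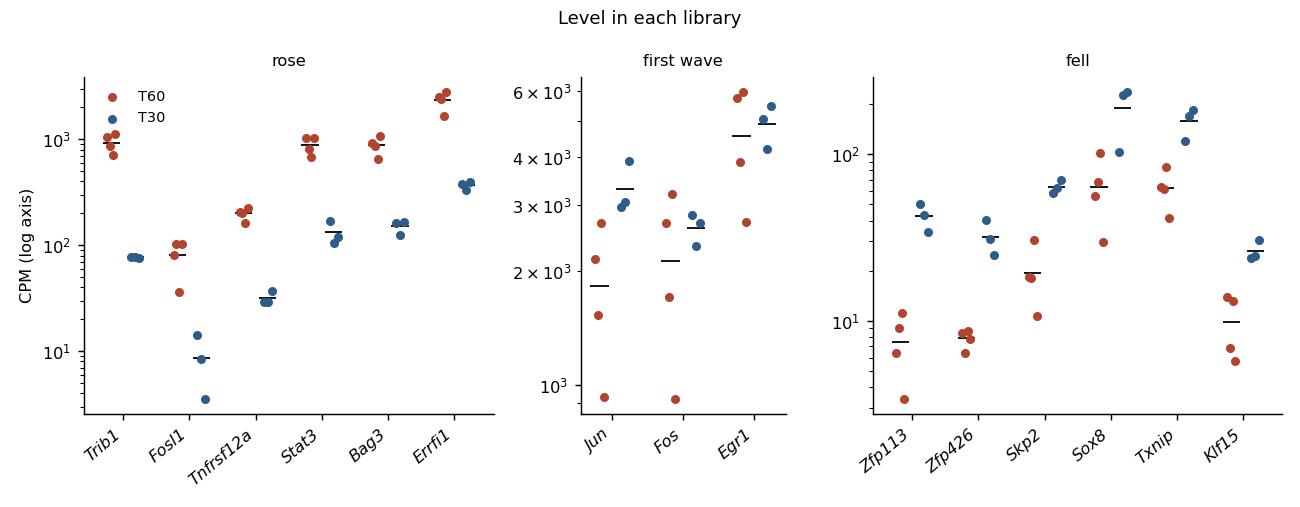
Level in CPM (log axis) in each T60 and T30 library for 6 genes that rose, 3 first-wave factors and 6 genes that fell, with bars at the mean. T60 and T30 points do not overlap in the rising and falling genes, and overlap in Fos and Egr1.

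First-wave transcription factors split. Of 17 listed, 10 rose and 2 fell, and 3 of the rises held. Jun, a core AP-1 subunit (chr4:95049034-95052222), had 2159, 1535, 2683 and 929 CPM in the T60 libraries, against 2959, 3046 and 3923 CPM in the T30 libraries. All T60 libraries lay below all T30 libraries, with a log2 change of -0.86 ± 0.34 (edgeR adjusted p = 0.039). The fall was called after subtraction (-1.67) but not with the covariate or without 30A and 30B, and it was lost without 30A, 30B, 30C, 60B or 60D alone (edgeR adjusted p = 0.0527 to 0.112). Ier2, an early response nuclear protein, had 244, 164, 280.1 and 157 CPM in the T60 libraries, against 397, 372 and 387 CPM in the T30 libraries, and a log2 change of -0.87 ± 0.21 (edgeR adjusted p = 0.00169), which was lost with the covariate. Fos, the partner of Jun, had 2678, 1707, 3205 and 921 CPM in the T60 libraries, against 2808, 2332 and 2680 CPM in the T30 libraries. Its libraries overlapped, and the change of -0.29 ± 0.35 did not pass the test (edgeR adjusted p = 0.504). Egr1, a zinc finger factor of the early response, averaged 4563 ± 1548 CPM at T60 and 4908 ± 647 CPM at T30, a change of -0.10 ± 0.24 (edgeR adjusted p = 0.739). After full subtraction both were called lower, Fos at -1.16 and Egr1 at -0.95 (edgeR adjusted p = 0.0248 and adjusted p = 0.0172). Fosb and Junb had changes of 0.48 ± 0.33 and 0.57 ± 0.26 and were not called, but Junb was called without 60D (0.68, edgeR adjusted p = 0.0406), with T60 and T30 libraries alone (0.55) and with the library letter as a replicate block (0.68, edgeR adjusted p = 0.00962).

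The factors of this list that rose were of the NR4A, MAF, KLF, EGR and ATF families and Srf. Nr4a2, an orphan nuclear receptor, had 216, 163, 133 and 131 CPM in the T60 libraries, against 55.4, 34.6 and 27.2 CPM in the T30 libraries, a log2 change of 2.06 ± 0.35 (edgeR adjusted p = 7.24e-05). Maff, a small MAF protein that pairs with other leucine zipper factors, averaged 267 ± 57.5 CPM at T60 and 69.1 ± 18.6 CPM at T30, and Nr4a3 averaged 585 ± 130.4 CPM at T60 and 178 ± 57.6 CPM at T30. Their log2 changes were 1.95 ± 0.28 and 1.72 ± 0.27, and the rises of these 3 genes held. Egr2, Klf4 and Atf3 had changes of 1.45 ± 0.29, 1.44 ± 0.34 and 1.41 ± 0.32, with all 3 calls lost after full subtraction and among genes at 5 times the T30 background or more (edgeR adjusted p = 0.0525 to 0.0586), that of Klf4 also under the other treatments. Srf, the serum response factor, rose by 0.64 ± 0.12, a call that full subtraction (0.04), column totals (0.29) and the restriction to genes at 5 times the T30 background or more (0.10) removed.

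Of 33 other immediate early genes, 25 rose and 11 held, and 1 fell. Trib1, given above, led them. Csrnp1, a nuclear protein induced by AXIN1, had 365, 260.0, 233 and 304 CPM in the T60 libraries, against 57.8, 29.6 and 27.5 CPM in the T30 libraries, and a log2 change of 2.94 ± 0.33 (edgeR adjusted p = 8.82e-07). Nfil3, a repressor that also feeds into the clock, rose by 2.34 ± 0.24, and Gadd45a, a stress sensor that slows the cell cycle, by 2.04 ± 0.15. The cyclin-dependent kinase inhibitor Cdkn1a rose by 1.82 ± 0.29, Sik1, a kinase that restrains CREB coactivators, by 1.51 ± 0.20, and Mcl1, a survival factor, by 1.30 ± 0.16. All of these held. Outside the lists, Ccnl1, a cyclin that regulates splicing, and Akirin1, a nuclear protein, whose CREs are shown above, averaged 808 ± 112 CPM at T60 and 243 ± 39.7 CPM at T30, and 46.3 ± 5.89 CPM at T60 and 12.8 ± 0.766 CPM at T30, with held log2 changes of 1.73 ± 0.17 and 1.85 ± 0.17 (edgeR adjusted p = 1.22e-07 and adjusted p = 5.04e-08). The member that fell was Dusp1, a MAP kinase phosphatase, with a log2 change of -0.42 ± 0.17 (edgeR adjusted p = 0.0375), a call lost without 30A and 30B and without 30B, 60B or 60D alone (edgeR adjusted p = 0.069 to 0.136). Btg2, an antiproliferative factor, had 0.04 ± 0.22, uncalled, and -0.83 after subtraction, where it was called lower (edgeR adjusted p = 0.0164). Ccn1, a matrix protein, had 0.38 ± 0.22 and was not called, but was called without 60D (0.54, edgeR adjusted p = 0.0275).

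Receptor and kinase signalling genes rose in several pathways. Of 17 genes of JAK-STAT3 signalling, 7 rose, 6 of them held, and 2 fell. Stat3, the transcription factor that IL-6 family cytokines activate (chr11:100885098-100939540), had 1024, 817, 674 and 1027 CPM in the T60 libraries, against 171, 106 and 120.4 CPM in the T30 libraries. Every T60 library was above every T30 library, with a log2 change of 2.74 ± 0.20 (edgeR adjusted p = 6.16e-09). The receptor chains Il6st (gp130) and Osmr rose by 1.10 ± 0.14 and 1.19 ± 0.36, Jak1 by 1.09 ± 0.12 and the interleukin 4 receptor Il4ra by 1.78 ± 0.19. The call of Osmr was lost on column totals (0.82, edgeR adjusted p = 0.0589) and without 30C (0.89, edgeR adjusted p = 0.0654). Pim1, a kinase and STAT target, had 144, 137, 86.3 and 203 CPM in the T60 libraries, against 23.2, 16.2 and 17 CPM in the T30 libraries, a log2 change of 2.94 ± 0.28 (edgeR adjusted p = 1.45e-07). The feedback inhibitor Socs3 had 0.59 ± 0.29 and was not called (edgeR adjusted p = 0.0902), but was called without 60D (0.74, edgeR adjusted p = 0.0427), with T60 and T30 libraries alone (0.57) and with the library letter as a block (0.68, edgeR adjusted p = 0.0288). Tyk2 and Pias3 were called lower, with log2 changes of -1.16 ± 0.20 and -0.89 ± 0.25, but after subtraction they had 0.63 and -0.15, and neither fall held.

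Of 20 NF-kB and cytokine genes, 14 rose and 7 held, and Cxcl12 fell, with 11 higher and 2 lower on column totals. Bcl3, a nuclear partner of NF-kB subunits, had 203, 180.3, 139 and 202 CPM in the T60 libraries, against 38.1, 20.8 and 24.8 CPM in the T30 libraries, a log2 change of 2.71 ± 0.27 (edgeR adjusted p = 1.62e-07). The subunit genes Rela, Nfkb1 and Nfkb2 rose by 1.62 ± 0.13, 1.54 ± 0.20 and 1.43 ± 0.18, with Rel at 1.09 ± 0.27 and Relb at 0.69 ± 0.20, and these 5 rises held, though that of Relb was lost on column totals (0.34, edgeR adjusted p = 0.177) and without 30B alone (0.55, edgeR adjusted p = 0.0557). The inhibitors Nfkbia and Tnfaip3 rose by 1.33 ± 0.22 and 0.99 ± 0.23, and their calls were lost with the covariate. The chemokine gene Cxcl1 averaged 99.6 ± 46.4 CPM at T60 and 51.9 ± 29.5 CPM at T30, with overlapping libraries, and its call was lost under all 3 treatments, on column totals (0.59), by DESeq2 and under 6 further alternatives, and without 30B, 30C, 60A or 60D alone (edgeR adjusted p = 0.0605 to 0.217). Cxcl12, a chemokine of the stem cell niche, had a change of -0.77 ± 0.26 (edgeR adjusted p = 0.017), overlapping libraries, and a change of 1.57 after subtraction. It was not called under any of the 3 treatments, by limma-voom (-0.62) or without 30A (-0.55, edgeR adjusted p = 0.131).

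MAP kinase feedback inhibitors numbered 15, of which 8 rose and 1 fell, with 3 held rises, while with column totals 3 were higher and 2 lower. Errfi1, which blocks the EGF receptor kinase, had 2492, 2412, 1651 and 2766 CPM in the T60 libraries, against 376, 333 and 396 CPM in the T30 libraries, a log2 change of 2.66 ± 0.23 (edgeR adjusted p = 3.26e-08). Spry4, an inhibitor of receptor tyrosine kinase signalling, and Dusp16, a JNK phosphatase, were the other held rises, by 1.02 ± 0.20 and 0.71 ± 0.18, and that of Dusp16 was lost on column totals (0.35, edgeR adjusted p = 0.127). Dusp6, an ERK phosphatase, and Spry1, a quiescence factor of satellite cells, had -0.15 ± 0.25 and -0.43 ± 0.22, both uncalled, and Spry1 was called lower after subtraction (-1.24, edgeR adjusted p = 0.00193), with 0.5 of the background subtracted (-0.79), on column totals (-0.77) and among genes at 5 times the T30 background or more (-0.95). Of 24 SRF and YAP targets 13 rose and 4 held, with 9 higher and 2 lower on column totals and a median of 0.56, or 0.02 after subtraction. Thbs1, a matrix protein, rose by 1.84 ± 0.33, Itga5, the fibronectin receptor chain, by 0.97 ± 0.22, and the coactivators Yap1 and Wwtr1 by 0.79 ± 0.10 and 0.97 ± 0.12.

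Stress and protein folding genes rose unevenly. Of 26 cytosolic heat shock genes 18 rose and 1 fell (69.2% and 3.85%, against 26.5% and 24.5% of all genes). Of the rises 2 held, against held rises in 6.58% of all genes. Bag3, a cochaperone of HSP70, had 925, 857, 645 and 1070 CPM in the T60 libraries, against 163, 124 and 167 CPM in the T30 libraries, a log2 change of 2.53 ± 0.19 (edgeR adjusted p = 7.86e-09), and Dnajb4, an HSP40 protein, was the other held rise, by 1.54 ± 0.19. The inducible HSP70 genes Hspa1a and Hspa1b had 0.99 ± 0.43 (uncalled) and 1.06 ± 0.43 (called and then lost under all 3 treatments), and reads of this near-identical pair are hard to tell apart. Hspa1a was called with the library letter as a block (1.18, edgeR adjusted p = 0.0152), with T60 and T30 libraries alone (0.97) and by limma-voom (1.06), and the call of Hspa1b was lost under 6 further alternatives, column totals among them (0.74), and without 30A, 30B, 60B, 60C or 60D alone (edgeR adjusted p = 0.0602 to 0.21). The 8 CCT chaperonin subunits, which fold actin and tubulin, all rose on the TMM scale, with a median of 0.57 and 0.22 with column totals, where the calls were lost. After full subtraction the median was 0.004 and no subunit was still called. Of 23 chaperone and stress genes of the endoplasmic reticulum, 16 rose, 6 held and 2 fell. Hspa5, the chaperone BiP, averaged 1017 ± 164 CPM at T60 and 313 ± 33.4 CPM at T30 and rose by 1.70 ± 0.14, the stress sensor Atf6 by 1.21 ± 0.13 and the cochaperones Dnajb9 and Dnajc3 by 1.37 ± 0.19 and 1.28 ± 0.14.

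Of 27 NRF2 targets and metallothioneins 14 rose and 4 fell. The 6 held rises include Txnrd1 and Srxn1, which reduce thioredoxin and peroxiredoxins, at 2.14 ± 0.16 and 2.13 ± 0.35, and the metal-binding protein Mt2 at 1.97 ± 0.20. Hmox1, a classic target of this pathway, had 3.96, 5.21, 2.46 and 4.66 CPM in the T60 libraries, against 6.86, 5.20 and 4.37 CPM in the T30 libraries, a low level that overlapped between groups, and a change of -0.38 ± 0.57 (edgeR adjusted p = 0.6). Of 21 integrated stress response genes 9 rose and 2 fell (42.9% and 9.52%, against 26.5% and 24.5% of all genes), with 5 higher and 7 lower on column totals. The held rise was that of Cebpg (0.64 ± 0.12), a leucine zipper partner of ATF4, whose call was lost on column totals (0.29, edgeR adjusted p = 0.0521). The central factor Atf4 rose by 1.15 ± 0.14, a call lost after subtraction (0.34), and Ddit3, the factor CHOP, had -0.17 ± 0.22, uncalled, and was called lower among genes at 5 times the T30 background or more (-0.73, edgeR adjusted p = 0.0366). Of 18 p53-regulated genes 9 rose (50%, against 26.5% of all genes), 5 of them held, and 3 fell (16.7%, against 24.5%). Trp53 itself rose by 0.80 ± 0.10, the death receptor gene Fas by 1.29 ± 0.20 and the kinase gene Plk3 by 2.00 ± 0.29.

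Growth genes rose in parts. Ribosome biogenesis had 27 rises and 5 falls of 65, with 6 held rises, and 12 higher and 18 lower on column totals. Nop58, a core protein of box C/D snoRNPs, had 784, 659, 585 and 848 CPM in the T60 libraries, against 227, 173 and 219 CPM in the T30 libraries, a log2 change of 1.80 ± 0.17 (edgeR adjusted p = 1.2e-07), and the nucleolar helicase Ddx21 rose by 1.26 ± 0.17. Of 41 translation initiation factors 23 rose and 3 fell. The 5 held rises were Eif1a (2.10 ± 0.14), Eif5 (1.37 ± 0.14), Eif4e (1.16 ± 0.15), Eif2s2 (1.04 ± 0.09) and Eif3j1 (1.41 ± 0.19). The 3 falls were subunits of the exchange factor eIF2B, Eif2b1 (-0.76 ± 0.24), Eif2b3 (-1.07 ± 0.25) and Eif2b4 (-1.02 ± 0.23), and did not hold. That of Eif2b1 was also lost without 30B (-0.65, edgeR adjusted p = 0.0562). Cytosolic ribosomal protein genes had 34 rises of 76 and a median of 0.47, but 2 were higher and 1 lower on column totals. After full subtraction 5 were higher and 1 lower, with a median of -0.10. Cytosolic tRNA synthetases had 4 rises and 1 fall of 22 (18.2% and 4.55%, against 26.5% and 24.5% of all genes). Proteasome subunits had 15 rises and 4 falls of 38 (39.5% and 10.5%). Of the proteasome rises Psmd8 (0.88 ± 0.10) and Psmd11 (0.84 ± 0.09) held, against held rises in 6.58% of all genes.

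Of 49 splicing factors of the SR and hnRNP families 43 rose, 8 held and 1 fell, with a median of 0.73, and 32 were higher and 3 lower on column totals. Sfpq, a paraspeckle protein, averaged 1382 ± 141 CPM at T60 and 549 ± 83.8 CPM at T30 and rose by 1.33 ± 0.15. Tra2a and Tra2b, which promote exon inclusion, rose by 1.23 ± 0.15 and 1.16 ± 0.13, and Hnrnpab, an RNA-binding protein, by 1.45 ± 0.16. After full subtraction 18 were higher and 3 lower. Factors of mRNA decay split. Of 40 listed, 18 rose and 6 fell, with 11 higher and 13 lower on column totals. Zc3h12a, an RNase of inflammatory mRNAs, Tob2, which recruits the CCR4-NOT deadenylase, and Elavl1, which binds AU-rich elements, held at 1.53 ± 0.22, 1.69 ± 0.16 and 0.58 ± 0.09. Zfp36, which speeds the decay of AU-rich mRNAs, rose by 0.81 ± 0.21 without holding, with -0.05 after subtraction and 0.46, uncalled, on column totals. The decapping genes Dcp1a, Dcp1b, Dcp2 and Edc3 were called lower, with changes of -0.48 ± 0.12, -1.15 ± 0.25, -0.50 ± 0.14 and -1.16 ± 0.17, and these falls did not hold. After subtraction Dcp2 and Edc3 had 0.41 and 0.41.

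Metabolic lists differed in held rises, which made up 6.58% of all genes. Held were 3 of 16 glycolysis genes, 2 of 20 cholesterol genes, 2 of 17 transporters and 1 of 15 hypoxia genes. The respiratory chain had 0 of 68, and autophagy and lysosome genes 2 of 45. Glycolysis genes had 10 rises of 16, with Hk2 (1.41 ± 0.30) and Pfkp (1.45 ± 0.17), which commit glucose to the pathway, among the 3 held, and Gapdh at -0.52 ± 0.49, uncalled. With column totals 4 were higher and 3 lower. Respiratory chain genes had 8 rises and 4 falls of 68, shares below those of all genes. On column totals 0 were higher and 15 lower, against 1034 and 3662 of all 8059 genes. Of 20 cholesterol genes 11 rose and 1 fell, with the sterol demethylase Cyp51 (1.55 ± 0.29) and the sterol carrier Stard4 (1.20 ± 0.20) held. Of 17 transporters of amino acids and related solutes 8 rose and 1 fell, and Slc38a2, a neutral amino acid transporter, had the largest rise (1.72 ± 0.17) and held. Of 15 hypoxia genes 9 rose and 1 fell, with Arnt, the partner of HIF-1 alpha, held at 0.83 ± 0.10. Autophagy and lysosome genes had 13 rises and 8 falls of 45 (28.9% and 17.8%, against 26.5% and 24.5% of all genes). The initiating kinase Ulk1 rose by 1.63 ± 0.20 and held.

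**Figure D4:**
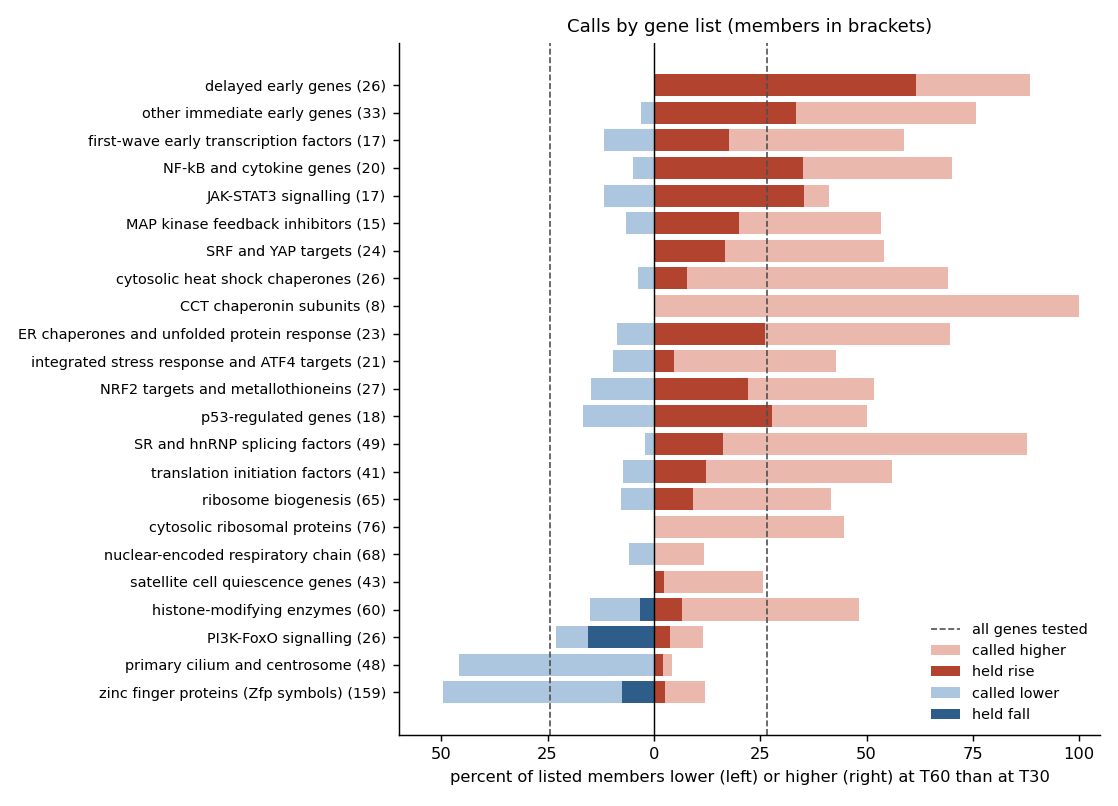
Share of each list called higher (right) and lower (left) at T60, with the held share in dark, and dashed lines at the shares of all genes, 26.5% higher and 24.5% lower. CCT subunits, delayed early genes and splicing factors reach furthest to the right, with the longest dark bar for delayed early genes, and zinc finger and cilium genes reach furthest to the left.

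Most of the satellite cell identity genes named here were not called. Pax7, the transcription factor that marks these cells (chr4:139737062-139833528), had 1834, 1408, 1625 and 1484 CPM in the T60 libraries, against 1703, 1473 and 1817 CPM in the T30 libraries. The libraries overlapped, and the change was -0.07 ± 0.17 (edgeR adjusted p = 0.761). After full subtraction Pax7 had -0.90 and was called lower (edgeR adjusted p = 0.0101), while with the covariate it had -0.01 and without 30A and 30B -0.20, both uncalled. Pax7 was also called lower on column totals (-0.41, edgeR adjusted p = 0.047) and in the fit of genes at 5 times the T30 background or more (-0.59, edgeR adjusted p = 0.0112). Myf5 and Myod1, the myogenic determination factors, had 0.41 ± 0.18 and 0.09 ± 0.21 (edgeR adjusted p = 0.0649 and adjusted p = 0.735), and Myf5 was called without 30C (0.56, edgeR adjusted p = 0.0205), with T60 and T30 libraries alone (0.38, edgeR adjusted p = 0.0415) and by limma-voom (0.43, adjusted p = 0.0485). The adhesion genes Cdh15, Itga7 and Vcam1 had 0.26 ± 0.16, 0.36 ± 0.18 and 0.35 ± 0.19, uncalled. Calcr, the calcitonin receptor of quiescent cells, was called at 0.48 ± 0.15, but had -0.14 after subtraction and 0.14 on column totals, neither called, and was not called without 30B (0.37, edgeR adjusted p = 0.0827) or without 60A (0.36, edgeR adjusted p = 0.0559). Sdc4, a heparan sulfate receptor for growth factors, had 1552, 1351, 1227 and 1923 CPM in the T60 libraries, against 468, 346 and 468 CPM in the T30 libraries, without overlap, and its log2 change of 1.82 ± 0.20 (edgeR adjusted p = 5.61e-07) held. Of 43 quiescence genes 11 rose in the main test (25.6%, against 26.5% of all genes), and 1 of them held. After full subtraction 2 were higher and 12 lower. The median was 0.30 as tested, -0.34 after subtraction and -0.04 with column totals, where 3 were higher and 8 lower.

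Among 19 Notch genes 6 rose and 3 fell (31.6% and 15.8%, against 26.5% and 24.5% of all genes). On column totals 1 was higher and 8 were lower. The coactivator Maml1 and the adaptor Numbl held, at 0.98 ± 0.13 and 0.67 ± 0.17, the call of Numbl being lost on column totals (0.32, edgeR adjusted p = 0.171), and the target gene Hes1 had -0.61 ± 0.33, uncalled, and was called lower after subtraction (-1.24, edgeR adjusted p = 0.0204), with 0.5 of the background subtracted (-0.90), on column totals (-0.94), among genes at 5 times the T30 background or more (-1.11), by limma-voom (-0.76) and without 60C (-0.95, edgeR adjusted p = 0.0194). Of 22 myogenic commitment genes 5 rose (22.7%, near the share of all genes) and 1 fell (4.55%, against 24.5%). Mef2d, a transcription factor of muscle genes, held at 0.97 ± 0.09. Of 22 cell cycle entry genes 2 rose and 2 fell (9.09% each, below the shares of all genes). The inhibitor Cdkn1a, given above, and the replication clamp Pcna (0.64 ± 0.21) were higher, with the call of Pcna lost under all 3 treatments, on column totals (0.29) and without 30B alone (0.47, edgeR adjusted p = 0.101). The helicase subunits Mcm2 and Mcm5 were lower, at -1.38 ± 0.42 and -0.96 ± 0.33, but had 0.60 and 0.71 after subtraction, and the call of Mcm5 was lost without 30A, 60A or 60D alone (edgeR adjusted p = 0.0541 to 0.0628). Ccnd1, the cyclin of cell cycle entry, had -0.21 ± 0.33, uncalled.

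The largest falls by fold were in repeated and silent sequence. Gm10800, a predicted gene, had 15.6, 102, 2.61 and 3.32 CPM in the T60 libraries, against 7877, 12361 and 6828 CPM in the T30 libraries, with 60B well above the other T60 libraries. The other 9 predicted genes of this kind, Gm17535, Gm26870, Gm10715, Gm10801, Gm10718, Gm21738, Gm10717, Gm11168 and Gm10719, fell by 6.71 to 9.31 on the log2 scale. Without 60B the change of Gm10800 was -10.31, against -8.19 with it, and those of the others except Gm17535 ran from -10.40 to -7.81. Gm17535 then had 1 count in the T60 libraries, and no fold is given for it. Of the 25-base words of these 10 models, between 43.0% and 94.6% also occur in another of the 10, so their reads cannot be assigned to one of them with certainty. Of the 10, Gm10715 held. Mroh2a and Pclo, which belong to the 10 silent long genes, had changes of -7.96 ± 1.28 and -5.22 ± 0.82, and Sp110, a nuclear body protein, -6.14 ± 0.93. The mucin gene Muc16, also one of the 10, had 1 count over the T60 libraries, against 1437 over the T30 libraries, a ratio of T30 to T60 of 4990 per total count (exact 95% interval 893 to 197000, counting error only). Mroh2a, Pclo and Muc16 are part of the density itself, so that nothing about them can be read from the 3 background treatments, and the fall of Sp110 did not hold.

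Among protein coding genes, 60 falls held. Zfp113, a zinc finger protein (chr5:138139702-138155744), had 6.37, 8.98, 11.2 and 3.39 CPM in the T60 libraries, against 50.0, 43.4 and 34.4 CPM in the T30 libraries. Its T60 libraries lay far below all T30 libraries, a log2 change of -2.51 ± 0.33 (edgeR adjusted p = 5.52e-06). Skp2, which recruits p27 to its ubiquitin ligase, had 18.3, 18, 30.5 and 10.7 CPM in the T60 libraries, against 58.9, 62.6 and 69.7 CPM in the T30 libraries, and a change of -1.72 ± 0.28 (edgeR adjusted p = 5.46e-05). Sox8, an SRY-box factor of satellite cells, had 56, 68.3, 102 and 29.7 CPM in the T60 libraries, against 104, 229 and 236 CPM in the T30 libraries, and a change of -1.57 ± 0.31 (edgeR adjusted p = 0.000358), with the highest T60 library just below the lowest T30 library. Bcl6, a transcriptional repressor, had a log2 change of -0.98 ± 0.18, Dtx4, an E3 ligase, -0.45 ± 0.12, and the linker histone genes Hist1h1e and H1f0 -1.22 ± 0.26 and -0.74 ± 0.20. Sall2, a zinc finger factor, and N6amt1, a methyltransferase, had -1.93 ± 0.23 and -1.37 ± 0.20, and all of these falls held.

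Genes with Zfp symbols encode zinc finger proteins, many of which bind DNA, and were frequent among the falls. Of 159 listed 79 fell (49.7%) and 19 rose, and 12 falls and 4 rises held. On column totals 116 were lower and 8 higher, and after full subtraction 42 were lower and 13 higher. Zfp426 had 8.45, 6.41, 8.64 and 7.73 CPM in the T60 libraries, against 40.5, 30.8 and 24.8 CPM in the T30 libraries, a log2 change of -2.03 ± 0.25 (edgeR adjusted p = 2.76e-06), and Zfp526 had a change of -1.47 ± 0.18, while Zfp131 rose by 2.02 ± 0.19.

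PI3K and FoxO signalling had 3 rises and 6 falls of 26 (11.5% and 23.1%, against 26.5% and 24.5% of all genes). Held were 1 rise and 4 falls, against 6.58% and 0.869% of all genes. On column totals 3 were higher and 13 lower, against 1034 and 3662 of all 8059 genes. Txnip, which limits glucose uptake and binds thioredoxin, had 63.2, 61.6, 83.8 and 41.1 CPM in the T60 libraries, against 121, 169 and 185 CPM in the T30 libraries, without overlap, and a log2 change of -1.35 ± 0.35 (edgeR adjusted p = 0.00346). Klf15, a factor of fasting and glucocorticoid response, had 13.9, 6.81, 13 and 5.75 CPM in the T60 libraries, against 23.7, 24.6 and 30.7 CPM in the T30 libraries, and a change of -1.42 ± 0.34 (edgeR adjusted p = 0.00179). Pik3ip1, an inhibitor of PI3K, had -1.26 ± 0.29 and the insulin receptor substrate Irs1 -0.68 ± 0.20, both held, though that of Irs1 was lost without 30C alone (-0.52, edgeR adjusted p = 0.0576). Irs2 was called higher at 1.40 ± 0.27, a call lost after subtraction and with the covariate, and the kinase gene Akt2 rose by 1.03 ± 0.13 and held. Of 20 glucocorticoid receptor targets 9 rose and 2 fell (45% and 10%, against 26.5% and 24.5% of all genes). Pdk4, which restrains pyruvate oxidation, rose by 1.93 ± 0.21 and held, while Tsc22d3 had -0.94 ± 0.42 (edgeR adjusted p = 0.0702) and Fkbp5 0.19 ± 0.29, both uncalled. Tsc22d3 was called lower with T60 and T30 libraries alone (-0.96, edgeR adjusted p = 0.00155), on column totals (-1.27), with the covariate (-2.79) and with 0.5 of the background subtracted (-1.04). Fkbp5 was called higher after full subtraction (2.04, edgeR adjusted p = 0.0366) and with 0.5 subtracted (0.86). Of 18 clock genes 10 rose and 4 fell (55.6% and 22.2%, against the same shares of all genes). Cry1, a repressor of the clock, rose by 1.83 ± 0.32 and held, while Bhlhe41, another repressor, and Per3, a period gene, had -1.11 ± 0.19 and -0.99 ± 0.25, called lower without holding.

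Histone-modifying enzymes had 29 rises and 9 falls of 60 (48.3% and 15%, against 26.5% and 24.5% of all genes). Held were 4 rises and 2 falls, against 6.58% and 0.869% of all genes. On column totals 13 were higher and 18 lower. The demethylases Kdm6b and Jmjd1c rose by 1.95 ± 0.16 and 2.29 ± 0.17 and the methyltransferase Dot1l by 1.39 ± 0.12, all held. Ezh1, a Polycomb methyltransferase, and Kdm4a, a demethylase, had -0.73 ± 0.12 and -0.41 ± 0.08, both held falls. Of 48 cilium and centrosome genes 22 fell and 2 rose (45.8% and 4.17%, against 24.5% and 26.5% of all genes), and 0 of the falls held. Wdr19, a subunit of ciliary transport, had -1.69 ± 0.30 but 1.69 after subtraction. There 7 of the 48 were lower and 2 higher, against 12.4% and 16.9% of all genes. Arl13b, a ciliary GTPase, rose by 1.97 ± 0.22 and held. Of 47 matrix, integrin and protease genes 13 rose and 3 fell (27.7% and 6.38%, against 26.5% and 24.5% of all genes). On column totals 6 were higher and 14 lower. Adamts4, a protease of proteoglycans, rose by 1.97 ± 0.36 and held. Lama4, a laminin chain, was called lower at -3.02 ± 0.53, but had 5.21 after subtraction and 0.02 with the covariate, both uncalled.

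The table gives genes whose mean over all 22 libraries is 10.2 CPM or more, and markers of other cell types outside it were not analysed here. Summed myofibre markers (12 of 27) ran from 1072 to 1164 CPM at T60, against 1231 to 1803 CPM at T30. Of the 12, 5 fell, among them Ttn (-1.99 ± 0.33) and Myh4 (-1.74 ± 0.38), neither of which held, and Ttn had 1.06 after subtraction. Endothelial markers (11 of 22) summed to 192 to 324 CPM at T60, against 209.6 to 486 CPM at T30, with 4 falls and, after full subtraction, 6 rises. Pericyte and smooth muscle markers (9 of 15) summed to 2755 to 3073 CPM at T60, against 1975 to 2245 CPM at T30. Of these 9, 1 rose and 3 fell, with 0 called after full subtraction. Fibroblast markers (9 of 20) summed to 3489 to 3611 CPM at T60, against 2363 to 3379 CPM at T30. Of these 9, 2 rose and 1 fell, with 2 higher and 2 lower after full subtraction. Of 22 immune markers Cd68 is in the table, at 19.8 ± 5.74 CPM at T60 and 34 ± 15.1 CPM at T30 and uncalled, with 2 of 9 tenocyte markers and 3 of 10 glial markers. Cd68 was called lower without 30C (-1.05, edgeR adjusted p = 0.0148), without 60A (-0.97, edgeR adjusted p = 0.0225), on column totals (-1.13, edgeR adjusted p = 0.00634), after full subtraction (-1.56, edgeR adjusted p = 0.0126), with 0.5 of the background subtracted, among genes at 5 times the T30 background or more, by DESeq2 and with RLE and the authors' size factors (changes of -1.35 to -0.79), but not with the covariate or without 30A and 30B. The part of other cells in the gene changes was not tested.

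The later course of the genes that changed is given by level, and shares the T60 libraries. Of the 530 held rises, 66 had their highest mean at T60, 230 at T90 and 234 at T120, and 460 were higher at T90 than at T60. Trib1 averaged 33.5, 68.7, 76.6, 932, 1119 and 611 CPM at T0, T15, T30, T60, T90 and T120 in order of time, with a peak at T90. Asb5 averaged 26.2, 29.3, 38.5, 419, 969 and 1055 CPM in the same order, and was highest at T120. Jun averaged 97.7, 2122, 3309, 1826, 426 and 334 CPM at the same points, with its peak at T30. Of the 70 held falls, 57 were lower still at T90, and 49 were already lower at T30 than at T0. Txnip averaged 450.0, 445, 158, 62.4, 38.5 and 70.7 CPM in the same order.

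**Figure D5:**
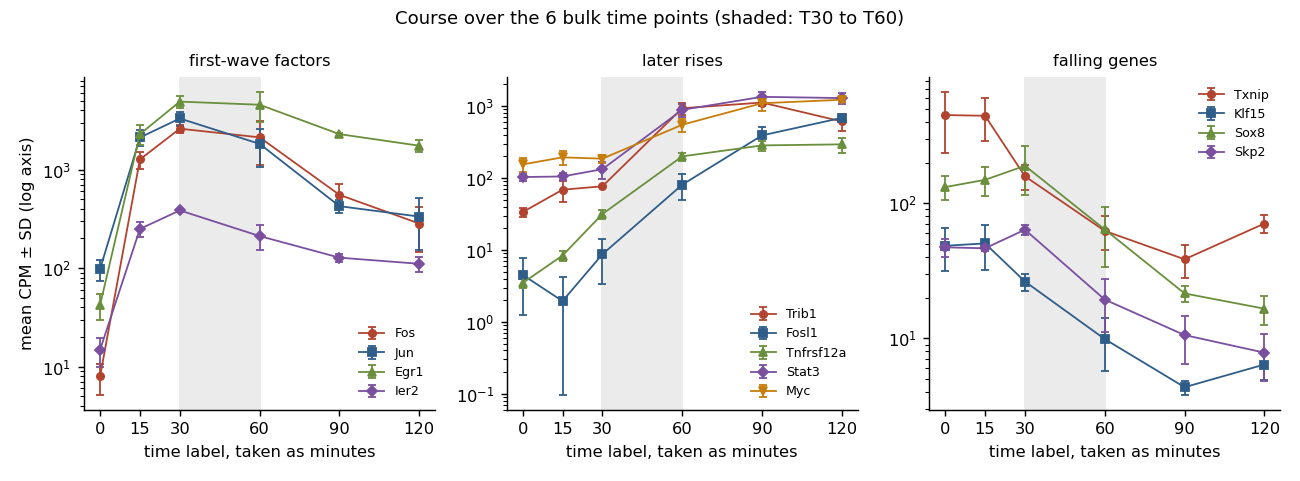
Mean level in CPM (log axis) with SD at T0, T15, T30, T60, T90 and T120 for first-wave factors, later rises and falling genes, with 4, 4, 3, 4, 3 and 4 libraries. The first-wave factors are highest at T30 and lower again at T90 and T120, the later rises climb between T30 and T60, and the falling genes drop between T30 and T60.

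Comparisons that share no library with T60 or T30 were set beside these calls. The density of silent long genes ran from 1.39 to 3.58 CPM per kb at T0 and from 0.683 to 3.61 at T15. At T90 it ran from 0.340 to 0.492 and at T120 from 0.289 to 1.21. The part of this background in the overlaps was not tested. Of 53 genes called higher at T15 than at T0 (0.658% of all), 34 were also higher at T60 than at T30, which is 64.2% of that list and 1.59% of the 2137 rises, and 4 were lower. Of 734 genes higher at T120 than at T90 (9.11%), 202 were higher and 192 lower at T60 than at T30, or 27.5% and 26.2% of that list. Of 1117 genes lower at T120 than at T90 (13.9%), 168 were higher and 315 lower here, or 15% and 28.2% of that list. The shares of all genes are 26.5% higher and 24.5% lower. Held under all 3 background treatments were 7 rises and 0 falls of the 53 genes, and 38 rises and 10 falls of the 734. Of the 1117 genes 53 rises and 11 falls held, against 530 rises (6.58%) and 70 falls (0.869%) of all genes.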

How the data were processed

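Bulk RNA-seq of mouse muscle stem cells was used, 4 T60 and 3 T30 libraries of 22 in all. Per the file headers, the authors deposited whole-number counts per Ensembl gene, and beside them a score, the counts over a size factor for each library as rounded by the authors, used only as an alternative scaling. The submitters' processing notes name the build mm10 and, with no roles, DESeq2 1.18.1, featureCounts 1.4.5-p3 and cutadapt 1.11 among the tools. The sources used here name no aligner, annotation release or strand setting (not given), so reads of overlapping and antisense genes may not be told apart. The deposited fold changes and p-values were not used, and the 9 single-cell and single-nuclei samples were not analysed here.

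Deposited counts went into the quasi-likelihood F test of edgeR 4.0.16 (R 4.3.3), with time as a factor over all 22 libraries, TMM factors and a common biological coefficient of variation of 0.192. A gene was called at an adjusted p under 0.05 (Benjamini-Hochberg over 8059 genes). CPM are counts scaled to the listed library total with TMM factors. The SE is the size of the log2 change over the square root of F. The background density was the summed level of 10 silent long genes per kilobase of exon (GENCODE vM21 lengths). The tests were also run on simulated counts with known changes. Deviations from the mean of the time point correlated between same-letter T60 and T30 libraries with r = 0.272 for A, 0.301 for B and 0.124 for C. Different letters had r from -0.285 to 0.117, which comes close to the value for C. The letters were taken as pairs only in the block, which was run as an alternative. Totals over listed genes stand for depth, and intervals cover counting error only. Alternatives were DESeq2 1.42.0, limma 3.58.1 (voom), other scalings, filters and background treatments, and each library left out.

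The members and the 47 gene lists were chosen with earlier results of these data known. Genes named are the 12 largest rises and 12 largest falls (protein coding, mean CPM of 20 or more, no overlap, called after full subtraction), up to 4 called members a list by smallest p, 10 genes always named, the 5 largest falls, and others chosen after their values were seen, among them all held falls named.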

Additional observations from a re-analysis of the deposited data

Results flagged for a closer look

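Single T60 libraries stood far from the other 3 for 18 of the 187 named genes checked. The measure was the gap to the nearest library over the whole range, by which chance alone flags about 1 in 20 groups. Library 60B was high for 7 of the predicted genes that share sequence: Gm10800 with 102 CPM (others 2.61 to 15.6), Gm10801 with 118 CPM (0.894 to 16.2), Gm21738 with 27.2 CPM (up to 2.75), Gm10717 with 23.5 CPM (0.298 to 3.15), Gm10718 with 3.21 CPM (up to 0.447), Gm10719 with 2.97 CPM (up to 0.336) and Gm17535 with 0.641 CPM (up to 0.0671). These 7 share reads, so they are not separate flags. All 10 such models were lower at T60 with 60B included.

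Library 60C was low for Myc with 386 CPM (others 596 to 617), for Sfpq with 1170 CPM (1430 to 1470), for Tob2 with 335 CPM (423 to 434) and for Maml1 with 63.2 CPM (74.7 to 76.0). Each of these 4 genes rose, and 60C was the T60 library nearest to T30 for each. Library 60A was high for Plk3 with 163 CPM (117 to 124), Zc3h12a with 65.0 CPM (41.2 to 44.7), Relb with 52.3 CPM (45.6 to 46.2) and Pias3 with 15.2 CPM (12.5 to 12.8), and had the single T60 count of Muc16, 0.0671 CPM. Library 60B was low for Eif2b3 with 18.4 CPM (22.5 to 22.7), and 60D for Hist1h1e with 53.7 CPM (97.1 to 102).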

How the results depend on the processing

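Called genes numbered 2137 higher and 1974 lower at T60, with 504 and 619 at least 2-fold. Column totals gave 1034 and 3662 (235 and 1265 at least 2-fold), full background subtraction 1363 and 997 (217 lower at least 2-fold), the density covariate 749 and 207 (100 lower), the fit without 30A and 30B 1037 and 551 (225 lower), and the 1705 genes at 5 times the T30 background or more 373 and 278 (113 and 35). Calls in the same direction under all 3 background treatments, a count chosen after the data were seen, were 530 and 70 (36 lower at least 2-fold). Leaving out 1 library gave 1747 to 2170 higher and 1589 to 2046 lower, and 454 to 559 and 500 to 816 at least 2-fold. DESeq2, limma-voom, RLE and the authors' size factors, the fit of T60 and T30 alone, both filters and 0.5 of the background subtracted stayed within 1.5 times each count. With the library letter as a replicate block 2127 were higher and 1926 lower, of which 2065 and 1875 are the same genes, and of the named genes it changed the calls of Junb, Socs3 and Hspa1a.

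Full subtraction turned the sign of Mcm2 (0.60), Mcm5 (0.71), Edc3 (0.41), Dcp2 (0.41), Lama4 (5.21), Ttn (1.06), Tyk2 (0.63), Wdr19 (1.69), Cxcl12 (1.57), Btg2 (-0.83), Calcr (-0.14) and Zfp36 (-0.048), and called Btg2 alone of these. The covariate turned Lama4 (0.02) and Cxcl12 (0.14), and also Dnah17 (0.20), which is part of the density itself, so that nothing can be read from it. The restriction to genes above the background turned Calcr (-0.037). The cause was not tested. Over all genes 16 rises and 42 falls were called the other way after full subtraction. The ratio of background density was 0.0869, 0.0688 to 0.1075 without each of its 10 genes, and 0.0677 as a share of counts. Low genes are limited by this density, which was 16.0% to 66.7% of the median gene at T30.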
